A study of Homo sapiens with 20 samples.

Results

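The region described here is a stretch of human chromosome 21 (hg19, 28.15 to 29.15 Mb) that holds the protease genes ADAMTS1 and ADAMTS5 and the start of the large gene desert beside them. Its members are the Hi-C anchor pairs with either anchor overlapping this window, which number 1466 of the 572000 anchor pairs listed in at least 1 of 4 cell lines. The window was chosen because anchor pairs in it were weaker in STAG2-corrected than in STAG2-mutant lines, so its comparisons between those lines are descriptions and carry no test. Hi-C, which ligates DNA ends that lie close together in the nucleus, was done on 2 replicates each of 4 glioblastoma (GBM) lines. H4 cells carry a frameshift mutation in STAG2 and 42MGBA cells a stop mutation, while gene editing corrected the mutation in their derivatives H4 88-1 and 42MGBA 53-1, respectively. Each parental line has 1 derivative here, so that correction of STAG2 and any other difference of that derivative cannot be told apart. The replicates of a line were pooled into 1 list, which leaves no replicate check on any difference below, and the lists hold no read counts, so the depth behind each value cannot be read from them. Loop strength is the deposited signal and has no unit. It is an average over a cell population, in which fewer cells with a contact and a weaker contact per cell cannot be told apart.

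ADAMTS1 and ADAMTS5 encode secreted metalloproteases that cut large matrix proteoglycans such as aggrecan and versican, and ADAMTS5 is best known for cartilage breakdown. STAG2 is a subunit of cohesin, the ring complex that extrudes chromatin into loops until it meets CTCF bound in a given orientation. Loops of this kind often join pairs of CTCF motifs that point towards each other. STAG1 is the paralogue of STAG2 in the same complex.

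ADAMTS1 (ENSG00000154734) lies at chr21:28208074-28217728 and ADAMTS5 (ENSG00000154736) at chr21:28290241-28339407, both on the minus strand, with their outermost starts 122 kb apart. The desert therefore lies upstream of both promoters. The next protein-coding gene to the right is N6AMT1, a methyltransferase gene, which lies 1905 kb beyond the ADAMTS5 start. To the left the nearest protein-coding gene is CYYR1, which ends 262 kb before ADAMTS1. Between the 2 genes, 6 neighbouring anchors of about 5 kb at chr21:28236356-28264763 form an intergenic hub of loops. The hub begins 18.6 kb upstream of the ADAMTS1 start and ends 74.6 kb short of the ADAMTS5 start. Its strongest loops end at an anchor at chr21:28932420-28937365, called the near stop here, or at an anchor at chr21:29070921-29075713, called the far stop. Neither anchor overlaps an annotated gene.

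The ends of the hub loop that differed most between mutant and corrected lines are shown first, to place that loop on the genome. Anchors were searched on both strands for a core of the CTCF motif, spelled CCA, any 2 bases, AG, any 2 bases, GGC. The sequences below come from the GRCh37 genome, read 5′ to 3′ on the strand of the match, with the 12 matching bases in capitals.

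Hub anchor, chr21:28253985-28254044, plus strand: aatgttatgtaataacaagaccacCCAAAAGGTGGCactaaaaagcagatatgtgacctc
Near stop anchor, chr21:28937166-28937225, minus strand: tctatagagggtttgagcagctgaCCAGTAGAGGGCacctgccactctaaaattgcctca

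The match in the hub points to the right and that in the near stop points to the left, so the pair face each other across 682 kb between anchor midpoints. The other match, at chr21:28769635-28769646 in the 28.77 Mb partner of the hub, lay on the plus strand like that of the hub and does not face it. The far stop and the 3 anchors at the ADAMTS1 start held no match, which says only that these letters are not in those windows. Of the 28 hub, start-site and stop anchors searched, 3 held a match, against 16.6% of the 2162 listed chromosome 21 anchors. With the last free base fixed as G, 5.32% of chromosome 21 anchors matched, and of the 28 only the near stop did. Fixing both last free bases as G gave 2.08%, and doing so with the third base free gave 4.76%, with no match among the 28 in either case. A match describes letters in a window and not CTCF binding, which was not measured here.

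The 4 lists differed widely in how many pairs of this locus they held. H4 listed 407, H4 88-1 listed 109, 42MGBA listed 998 and 42MGBA 53-1 listed 1110. These are 7.40%, 2.64%, 12.5% and 14.0% of all chromosome 21 pairs in the same lists. Because every list was cut at its 300000 strongest pairs, a pair that is not listed was weaker than the lowest strength of that list, which was 4.14 in H4 against 4.44 in H4 88-1, and 4.49 in 42MGBA against 4.28 in 42MGBA 53-1. Only 94 of the 1466 pairs were in all 4 lists, whereas 669 were in a single list. A 42MGBA list but neither H4 list held 1051 pairs, and the reverse was true of 57. The strongest locus pair had a strength of 14.9 in H4 against 11.3 in H4 88-1, and 25.3 in 42MGBA against 22.4 in 42MGBA 53-1.

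**Figure D1:**
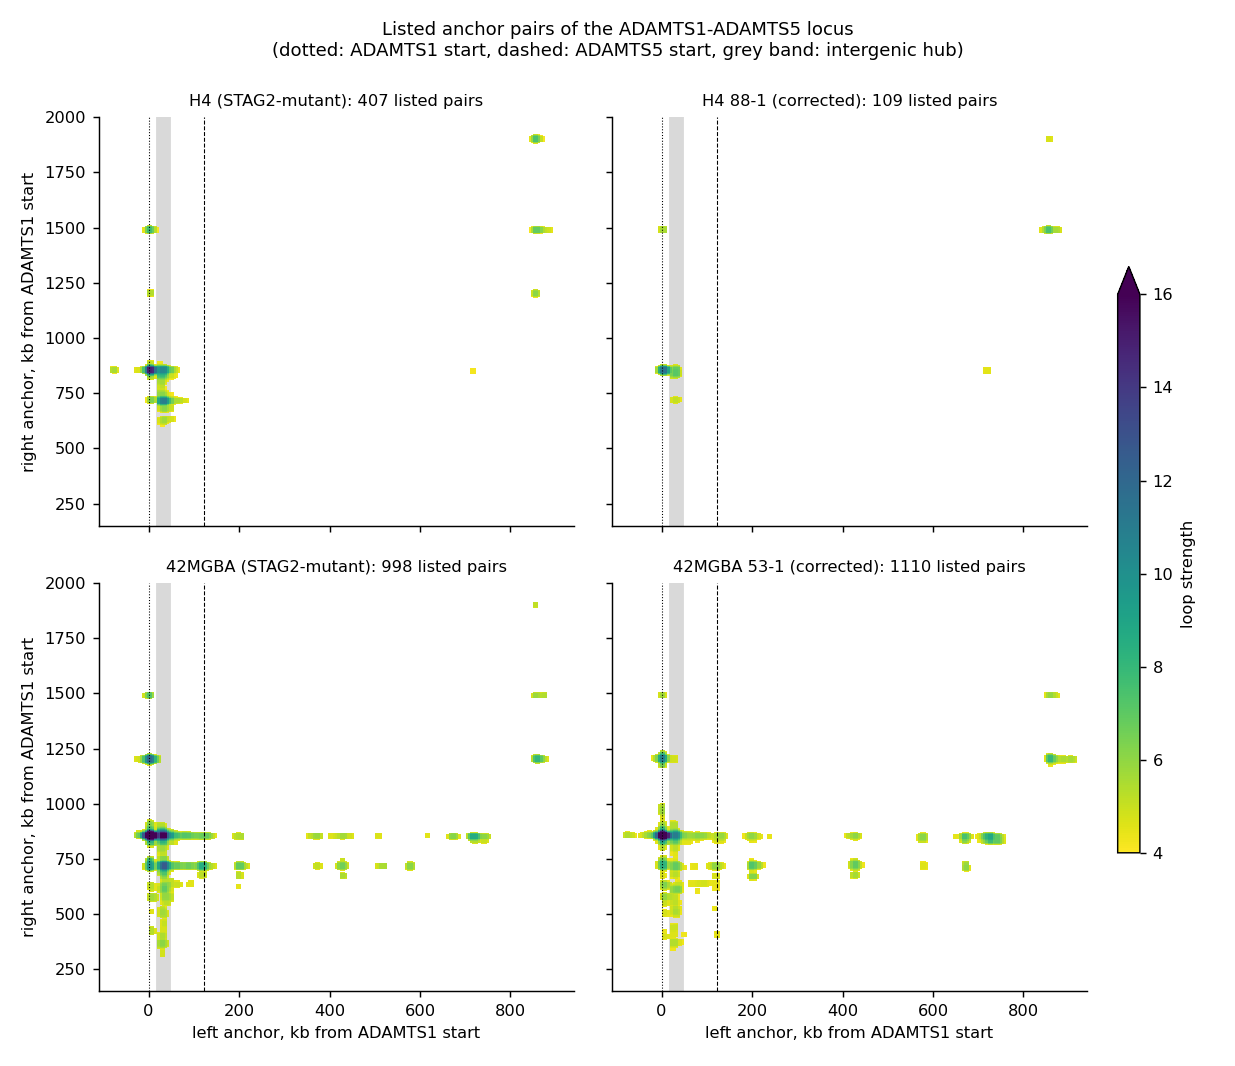
Listed anchor pairs of the locus in each of the 4 cell lines, with the left anchor on the horizontal axis and the right anchor on the vertical axis, both in kb from the ADAMTS1 start, coloured by loop strength. Of the 407, 109, 998 and 1110 listed pairs, the strongest in each line lies on the row of the far stop. The 42MGBA lines add pairs that begin within the desert.

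Every anchor pair of the hub ran to the right, into the desert. The hub was the left anchor of all 435 of its pairs and the right anchor of 0, and the same held for all 151 pairs at the ADAMTS1 start and all 53 at the ADAMTS5 start. No listed pair joined the hub to either gene's start, or one start to the other. Of the 1466 pairs, 49 had a left anchor before the ADAMTS1 start anchors, 156 between these and the hub, 190 between the hub and the ADAMTS5 start, and 432 further into the desert. Both anchors lay inside the window in 1268 pairs, 190 reached beyond its right edge and 8 began before its left edge.

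Of the stops at 28.85, 28.93, 29.07 and 29.71 Mb, the one at 29.07 Mb, the far stop, took the largest share of every list. Counting anchors within 10 kb of it, the far stop received 101 of the 407 H4 pairs, 63 of the 109 H4 88-1 pairs, 289 of the 998 42MGBA pairs and 351 of the 1110 42MGBA 53-1 pairs. The near stop received 78, 9, 190 and 154. In percent, the far stop thus held 24.8% of the H4 pairs and 57.8% of the H4 88-1 pairs, while the near stop held 19.2% and 8.26%. In 42MGBA and 42MGBA 53-1 the far stop held 29.0% and 31.6%, and the near stop 19.0% and 13.9%. The near stop was therefore the smaller in all 4 lists and had a lower share in the corrected line of both systems.

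The hub reached partners between 286 and 1186 kb away. H4 listed 200 of the 435 hub pairs, H4 88-1 listed 45, 42MGBA listed 359 and 42MGBA 53-1 listed 275. Local maxima were taken on hub strength summed over the 4 lists. The near and far stops were the only ones at which all 4 lists held pairs. In H4 88-1 the strongest hub pairs lay beside these anchors, with 7.11 against 6.90 at the far stop and 5.11 against 5.07 at the near stop. At a weaker summed maximum at 28.85 Mb, hub pairs were listed in H4 (5.72), 42MGBA (6.39) and 42MGBA 53-1 (4.87) and not in H4 88-1. In the 42MGBA lists, anchors to the left of it held stronger hub pairs, up to 6.92 in 42MGBA and 6.52 in 42MGBA 53-1. Only the 42MGBA lists held hub pairs at the summed maxima at 28.59, 28.63, 28.72 and 28.77 Mb. Their strengths there were up to 6.07 in 42MGBA and 5.37 in 42MGBA 53-1. Beyond the far stop, only the 42MGBA lists held hub pairs at 29.42 Mb, 3 in 42MGBA and 6 in 42MGBA 53-1. None reached 29.71 Mb, where ADAMTS1 start pairs ended.

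**Figure D2:**
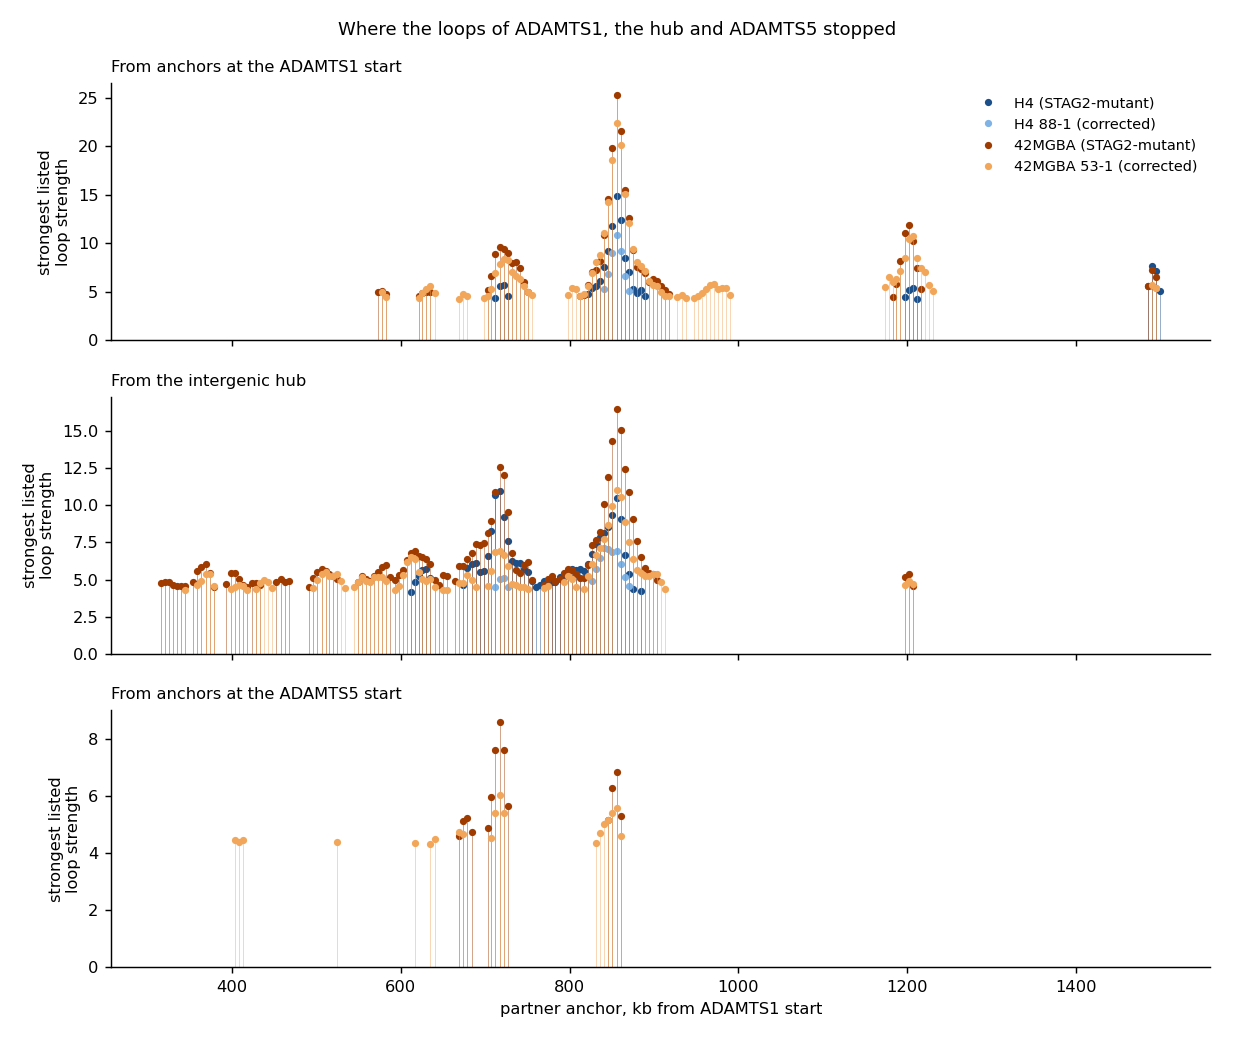
Strongest listed strength at each partner anchor, in kb from the ADAMTS1 start, for loops from the ADAMTS1 start (top), the hub (middle) and the ADAMTS5 start (bottom), with 1 colour per cell line. The profiles share peaks at the near and far stops, and from the ADAMTS5 start only 42MGBA and 42MGBA 53-1 have points.

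The hub pair with the largest difference over both systems joined chr21:28250615-28255479 to the near stop, the pair whose motif matches are printed above. Its strength was 10.96 in H4 against 4.80 in H4 88-1, and 12.6 in 42MGBA against 6.52 in 42MGBA 53-1. Both mutant lines lay above both corrected lines. The mutant line was 2.28-fold stronger for the H4 lines and 1.93-fold for the 42MGBA lines. The pair ranked 8248 in the H4 list and 235896 in the H4 88-1 list. In the 42MGBA lists its ranks were 5447 and 64399.

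The hub pair with the greatest strength in the 42MGBA lines joined chr21:28245691-28250614 to the far stop over 825 kb. It had a strength of 10.5 in H4 against 6.90 in H4 88-1, and 16.5 in 42MGBA against 11.01 in 42MGBA 53-1. Again each mutant line was above its derivative, by 1.52-fold for the H4 lines and 1.499-fold for the 42MGBA lines. Here, in contrast to the near stop, 42MGBA 53-1 (11.01) lay slightly above mutant H4 (10.5). The ratio of the strongest hub pair at or beside the near stop to that at or beside the far stop was 1.05 in H4 against 0.718 in H4 88-1, and 0.764 in 42MGBA against 0.626 in 42MGBA 53-1.

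The strongest pair of each of the 6 hub anchors was weaker, or not listed, in the corrected line of both systems. The largest strength of any pair from the anchor at chr21:28245691-28250614 was 10.7 in H4 and 7.11 in H4 88-1. From the anchor at chr21:28255480-28259955 it was 9.40 and 5.01, and in the 42MGBA system 12.3 and 7.83. The sixth anchor, chr21:28259956-28264763, overlaps an exon of the long noncoding RNA gene ENSG00000223563 and was the only hub anchor in a gene. It had 26 listed pairs in H4 against 0 in H4 88-1, and 41 in 42MGBA against 16 in 42MGBA 53-1. At the first anchor, chr21:28236356-28240874, by contrast, 42MGBA 53-1 listed more pairs (17) than 42MGBA (14), although its strongest pair was weaker, at 9.42 against 11.2. The second anchor, chr21:28240875-28245690, did likewise, with 81 listed pairs in 42MGBA 53-1 and 61 in 42MGBA and a strongest pair of 9.87 against 13.8.

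The hub had few listed pairs around the near stop in H4 88-1. Of 38 hub pairs to chr21:28918414-28951555 around the near stop, 37 were listed in H4 against 9 in H4 88-1, and 37 in 42MGBA against 25 in 42MGBA 53-1. Over the pairs listed in both lines, the median log2 ratio of corrected to mutant strength was -0.91 (9 pairs) for the H4 lines and -0.61 for the 42MGBA lines (25 pairs). Of 42 hub pairs to chr21:29056703-29090235 around the far stop, 38, 27, 42 and 42 were listed. Their median log2 ratio was -0.40 (27 pairs) for the H4 lines and -0.48 for the 42MGBA lines (42 pairs). Strengths are smoothed over neighbouring anchors, so adjacent pairs are not independent loops.

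To set the locus beside the genome, the 100000 strongest pairs of both lines of a system were merged and called lower or higher in the corrected line by a two-sided 0.05 cutoff on the z-score of a regression residual. In the H4 pair, 118 locus pairs were merged, of which 29 were called lower in H4 88-1 and 0 higher. Over all 129476 merged pairs of the genome, 2.17% were called lower and 1.94% higher. In the 42MGBA pair, 359 were merged, of which 17 were called lower in 42MGBA 53-1 and 0 higher, where the genome had 2.45% lower and 1.61% higher among 131211 pairs. In the H4 pair 39 of the merged locus pairs were absent from the corrected list and in the 42MGBA pair 19, and each of these took that list's lowest strength, so that its ratio is a bound. A pair entered through either list, and most hub pairs entered through the mutant line. The 100000 strongest pairs held 69 hub pairs in H4 and 11 in H4 88-1, and 94 in 42MGBA and 62 in 42MGBA 53-1, so that the direction of merged hub pairs is in large part set by this selection. The window was chosen from these calls, so that nothing is read from its count beside the genome's. The hub had 26 of the 29 calls of the H4 pair and all 17 of the 42MGBA pair. Joined where both anchors lay within 10 kb, the calls made 3 groups for the H4 lines and 2 for the 42MGBA lines. When z-scores were taken on log2 ratios among pairs of similar size, 19 calls were left for the H4 lines and 0 for the 42MGBA lines.

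The calls were spread over both stops. At the near stop 18 of 27 merged hub pairs were called lower in the H4 pair, with z-scores from -4.02 to -1.10, and 11 of 28 in the 42MGBA pair, from -3.14 to -0.46. At the far stop 8 of 26 were called for the H4 lines and 6 of 37 for the 42MGBA lines. Over 64 hub pairs merged in both systems, all 64 were weaker in both corrected lines, with a median log2 ratio of -0.56 for the H4 lines and -0.54 for the 42MGBA lines. The choice of the window and the entry through the mutant lists favour this direction, so it is no independent support. Among these, 14 were called lower in both, which is 53.8% of the H4 calls and 82.4% of the 42MGBA calls, where over the genome the shares were 10.7% and 6.95%. The window was chosen from these calls, and the hub calls join into 2 groups of neighbouring pairs in each system. Nothing is therefore read from these shares beside the genome's.

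**Figure D3:**
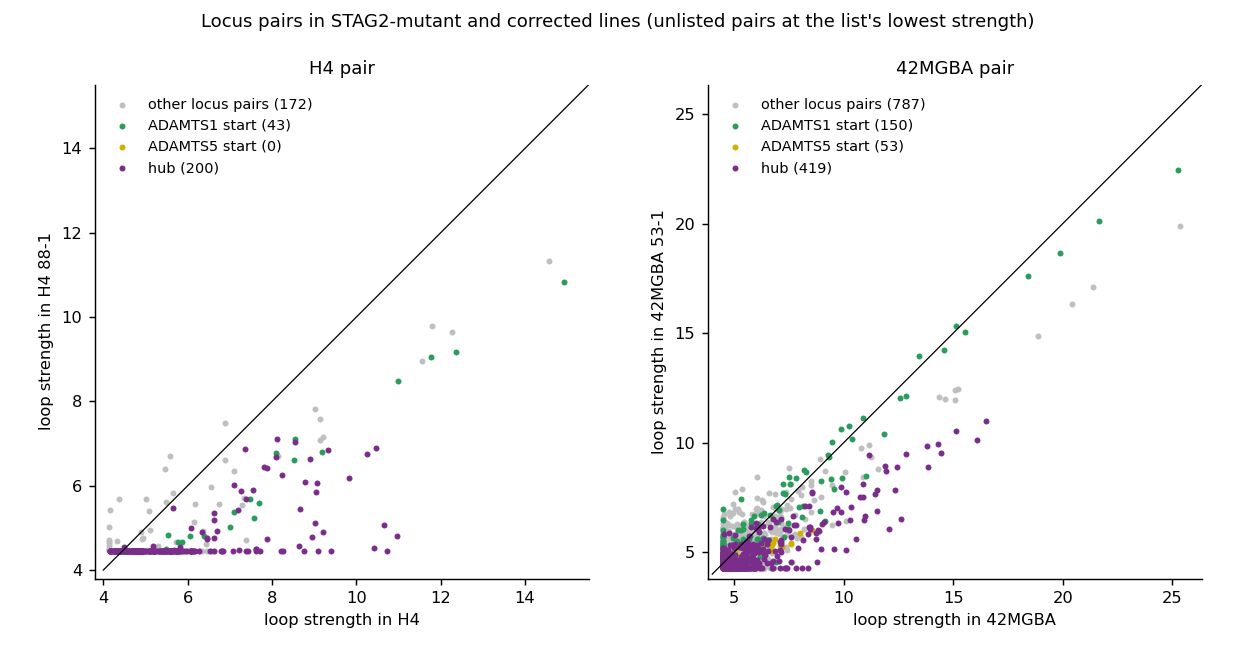
Strength of each locus pair in the STAG2-mutant line (horizontal axis) and its corrected derivative (vertical axis), for the H4 pair (left) and the 42MGBA pair (right). The line marks equal strength and unlisted pairs are drawn at the lowest strength of that list. The merged hub pairs of 600 to 900 kb all lie below the line in both systems. The merged ADAMTS1 start pairs lie below it in the H4 pair, where all of them entered through H4, and near it in the 42MGBA pair.

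The strongest loops of the locus came from the ADAMTS1 promoter and the anchor beside it. Within 3 kb of the 7 annotated starts of ADAMTS1 lay 151 pairs, of which H4 listed 43, H4 88-1 listed 19, 42MGBA listed 101 and 42MGBA 53-1 listed 143. The strongest in every line joined chr21:28217439-28221910, which covers the outermost start, to the far stop 854 kb away. Its strength was 14.9 in H4 against 10.8 in H4 88-1, and 25.3 in 42MGBA against 22.4 in 42MGBA 53-1. Both 42MGBA lines were above both H4 lines, and this pair ranked 66 and 72 in the 42MGBA and 42MGBA 53-1 lists but 1655 and 10611 in the H4 and H4 88-1 lists. It was 1.38-fold stronger in H4 than in H4 88-1 and called lower there (z = -2.78). In the 42MGBA pair it was 1.13-fold stronger in the mutant line and not called (z = -0.26).

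The anchor beside the promoter, chr21:28221911-28226796, gave loops of like strength. In the 42MGBA pair its far-stop loop differed more than that of the promoter. Joined to the far stop it had a strength of 14.6 in H4 against 11.3 in H4 88-1, and 25.3 in 42MGBA against 19.9 in 42MGBA 53-1. The mutant line was 1.28-fold stronger for the H4 lines (z = -2.25, called lower) and 1.27-fold for the 42MGBA lines (z = -1.92, not called). In the 42MGBA pair the difference was larger from the promoter towards the hub, from a median log2 ratio of 0.02 over 65 merged pairs at the ADAMTS1 start, through -0.23 over 49 pairs in between, to -0.50 over 102 hub pairs. In the H4 pair the medians of the same sets were -0.40 over 17, -0.35 over 18 and -0.50 over 69 pairs. Of the 17 merged ADAMTS1 start pairs in the H4 pair, 2 were called lower, and of the 65 in the 42MGBA pair, 0. All 17 entered through H4 and 8 of them also through H4 88-1, which favours the direction of the H4 median. With anchors up to 10 kb from a start the 42MGBA median was below 0, at -0.08. On the 16 start pairs merged in both systems the medians were -0.40 and -0.05.

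ADAMTS1 also reached the near stop and 2 anchors beyond the far stop. Its strongest pair with the near-stop anchor itself had a strength of 5.60 in H4, 9.58 in 42MGBA and 7.87 in 42MGBA 53-1 and was not listed in H4 88-1. At 29.42 Mb, within an exon of the long noncoding RNA gene LINC01697, it had 5.19 in H4, 11.9 in 42MGBA and 10.4 in 42MGBA 53-1, and again was not listed in H4 88-1. The absence from H4 88-1 puts the H4 fold at 1.26 or more for the near stop and 1.17 or more at 29.42 Mb. The longest loop, to 29.71 Mb in an intron of the noncoding gene ENSG00000232855, was listed in every line. Its strength was 7.70 in H4 against 5.58 in H4 88-1, and 7.27 in 42MGBA against 5.69 in 42MGBA 53-1, so that at this stop H4 was no weaker than 42MGBA.

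ADAMTS5 start pairs were listed in the 42MGBA lines only. Of 53 pairs within 3 kb of an ADAMTS5 start, H4 and H4 88-1 listed 0, 42MGBA listed 35 and 42MGBA 53-1 listed 43. Their strongest pairs used the same stops as the hub. The strongest joined chr21:28332981-28337547, in an intron of ADAMTS5 next to its start, to the near stop over 600 kb, with a strength of 8.57 in 42MGBA and 6.03 in 42MGBA 53-1. The strongest far-stop pair had 6.85 and 5.59. Around the near stop 42MGBA listed 16 pairs and 42MGBA 53-1 listed 11, and around the far stop 12 and 14. The 12 pairs merged in the 42MGBA system were all among the 100000 strongest of 42MGBA and 2 were among those of 42MGBA 53-1, so their direction is not read, and 0 were called.

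**Figure D4:**
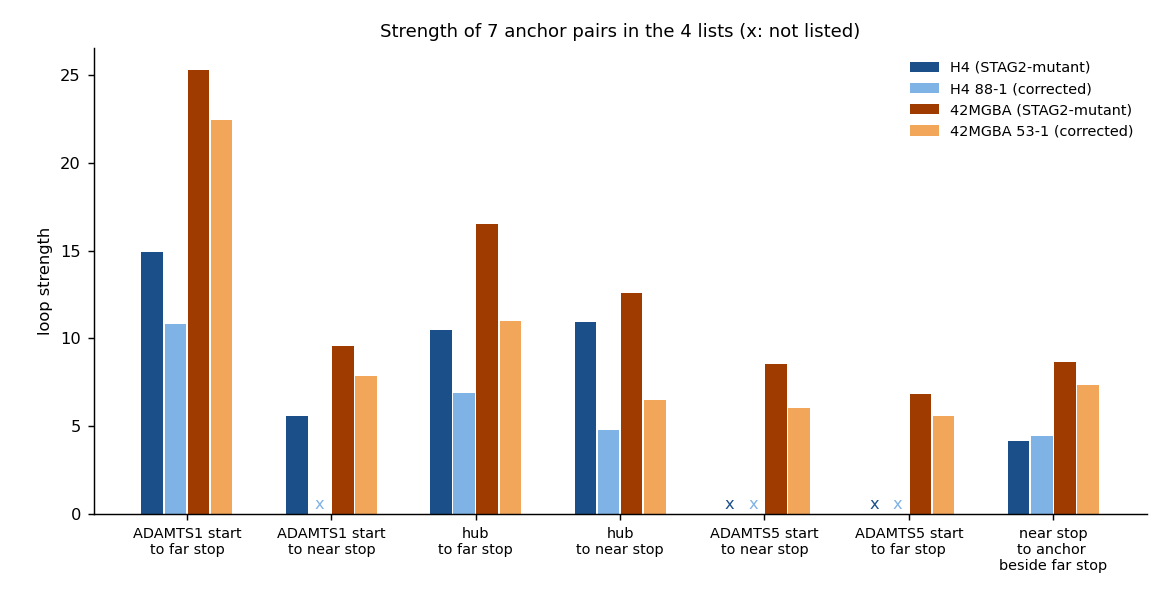
Loop strength of 7 anchor pairs in the 4 cell lines, 1 bar per line on a scale that starts at 0, with a cross where a line did not list the pair. The hub pairs are lower in each corrected line than in its parent, and the ADAMTS5 start pairs appear in the 42MGBA lines only.

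The 14 anchors between the hub and the ADAMTS5 start, which lie within or beside ADAMTS5, held 190 pairs. H4 listed 56 of them, H4 88-1 listed 0, 42MGBA listed 153 and 42MGBA 53-1 listed 114. Their strongest pair had 6.63 in H4, 9.47 in 42MGBA and 6.22 in 42MGBA 53-1. None of the 40 pairs merged in the 42MGBA system was called. To the left of the ADAMTS1 start, by contrast, the 49 pairs were listed more often in the corrected 42MGBA 53-1 (42) than in 42MGBA (21), while H4 listed 11 and H4 88-1 listed 0.

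Short pairs inside the desert were listed mainly in the 42MGBA lines. Of 128 pairs shorter than 200 kb with both anchors past the ADAMTS5 start, H4 listed 1, H4 88-1 listed 4, 42MGBA listed 67 and 42MGBA 53-1 listed 124. The strongest lay between the near and the far stop. The pair from chr21:28941931-28946927 to chr21:29066139-29070920, beside the far stop, had a strength of 7.50 in 42MGBA and 8.82 in 42MGBA 53-1 and was in neither H4 list. The pair from the near stop itself to the same anchor had 4.19 in H4 against 4.45 in H4 88-1, and 8.65 in 42MGBA against 7.36 in 42MGBA 53-1. All 51 short pairs merged in the 42MGBA system were among the 100000 strongest of 42MGBA 53-1 and 11 were among those of 42MGBA, so their direction is not read, and 0 were called.

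Some pairs that ran to the right from the far stop had a different order of the lines. The far stop itself joined to 29.71 Mb with a strength of 6.89 in H4 against 7.48 in H4 88-1, and 5.78 in 42MGBA against 5.59 in 42MGBA 53-1. For this pair both H4 lines were above both 42MGBA lines. Its pair with chr21:30116636-30121448 had 7.38 in H4, 4.72 in H4 88-1 and 5.14 in 42MGBA and was not listed in 42MGBA 53-1. They were chosen as the strongest pairs of H4 88-1 and H4, respectively, with both anchors past ADAMTS5, a choice that favours the H4 lines. The order is therefore not read as that of all pairs to the right of the far stop.

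Loop size and chromosome moved with the ratio of corrected to mutant strength, and their part in the locus differences was not tested. In the H4 pair the median log2 ratio was -0.45 over the 118 locus pairs, -0.15 over chromosome 21 and 0.07 over the genome. In the 42MGBA pair it was -0.19 over the 359 locus pairs, -0.19 over chromosome 21 and -0.11 over the genome. Between 600 and 900 kb, where the H4 pair had all of its 69 merged hub pairs, the hub had a median of -0.50, the rest of chromosome 21 -0.37 and the genome -0.06. In the 42MGBA pair the 89 hub pairs of that size had -0.53, the rest of chromosome 21 -0.24 and the genome -0.27. The hub median was below both at this size in each system, with the entry of hub pairs through the mutant lists as given above. Its 13 shorter pairs in the 42MGBA system, between 400 and 600 kb, were an exception, with a median of -0.03 beside -0.33 for the rest of chromosome 21 and -0.21 for the genome.

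**Figure D5:**
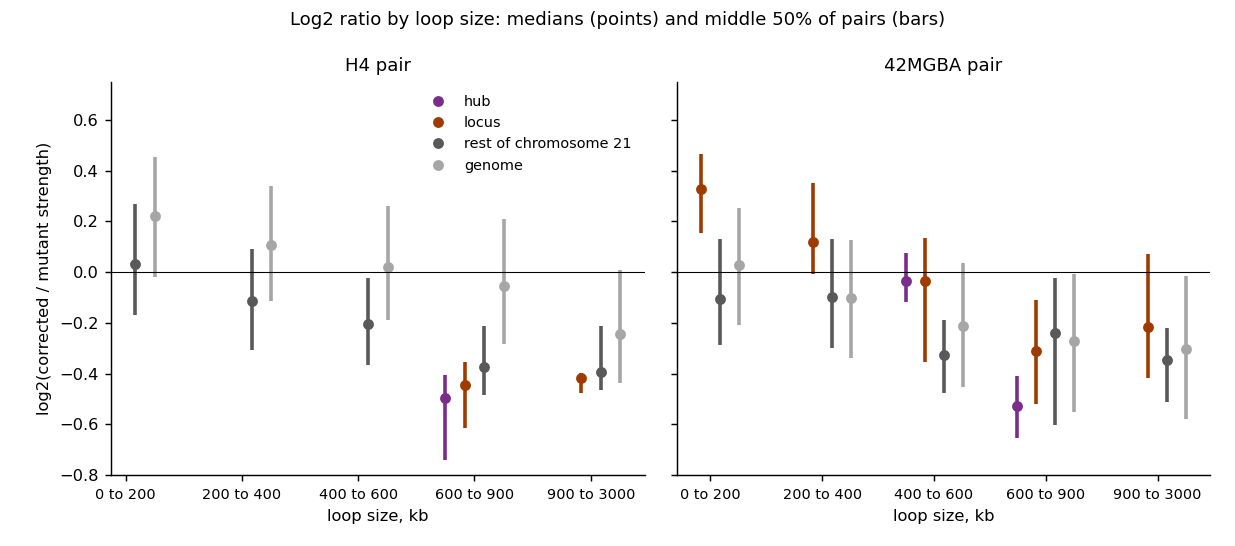
Log2 ratio of corrected to mutant strength by loop size in kb, for the hub, the whole locus, the rest of chromosome 21 and the genome, with medians as points and the middle 50% of pairs as bars. Sets of fewer than 10 merged pairs are left out. The hub lies at -0.50 and -0.53 between 600 and 900 kb, below the rest of chromosome 21 and the genome. The locus value below 200 kb in the 42MGBA pair rests on 51 pairs that entered through 42MGBA 53-1, of which 11 also entered through 42MGBA.

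Between the systems, the 42MGBA lines listed more locus pairs and had the stronger strongest pair, though not every pair was stronger in them. Set against H4, the median log2 ratio of 42MGBA was 0.61 over 286 merged locus pairs, 0.36 over chromosome 21 and 0.10 over the genome. Of the 286 pairs, H4 did not list 84 and 42MGBA did not list 3, and these took the lowest strength of the list that lacked them. In 42MGBA 162 locus pairs were at least 1.5-fold stronger (genome 26.1%), and 0 were weaker by that factor (genome 11.2%). The strongest pairs taken for merging held 269 locus pairs in 42MGBA and 116 in H4. Most of the 286 thus entered only through 42MGBA, which favours this direction in the median and in these counts. Nothing is therefore read from them beside the genome's values. Set against H4 88-1, the median of 42MGBA 53-1 was 0.55 over 267 locus pairs, 0.34 over chromosome 21 and -0.08 over the genome. H4 88-1 did not list 186 of these 267, while 42MGBA 53-1 listed all of them. These 186 entered only through the line in which they were strong, so that the median is mostly made of bounds and the direction is in large part fixed by the selection. The same holds for the 122 pairs at least 1.5-fold stronger (genome 10.4%) and the 0 weaker (genome 24.5%). At the ADAMTS1 start, 16 of 53 merged pairs were absent from H4 and 43 of 58 from H4 88-1. The strongest ADAMTS1 start pair, listed in every line, was 1.69-fold stronger in 42MGBA than in H4 and 2.07-fold stronger in 42MGBA 53-1 than in H4 88-1. These comparisons use the same 4 lists as those within each system.

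No protein-coding gene other than ADAMTS1 and ADAMTS5 had a start within 3 kb of any anchor of the locus. The other starts were those of 7 long noncoding RNA genes. ENSG00000223563, which begins in the sixth hub anchor, had 109 locus pairs, of which H4 listed 58, H4 88-1 listed 6, 42MGBA listed 98 and 42MGBA 53-1 listed 45. LINC01697 had 48 locus pairs and LINC00113, to the right of the far stop, had 46. Of the fixed neighbours, APP, the amyloid precursor gene, had 51 listed start pairs, and none of them reached the locus. CYYR1 and N6AMT1 had 0 listed start pairs, and none of the start pairs of the other fixed neighbours reached the locus.

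Of 14 other genes in the same protease pathway, 7 had merged start pairs in each system. These were further proteoglycanases, their substrates, and proteins that inhibit, bind or take them up. None of their 185 merged pairs was called in the H4 pair (genome 2.17% lower and 1.94% higher). In the 42MGBA pair 22 of 251 were called lower in 42MGBA 53-1 and 0 higher, at 3 genes, where the genome had 2.45% lower and 1.61% higher. Adjacent pairs at a gene are not independent loops, and these calls were neither joined nor taken among pairs of similar size. The count is therefore not read beside the genome's share. TIMP3, an inhibitor of ADAMTS proteases, had 11 of its 29 called, with a median log2 ratio of -0.60. The strongest TIMP3 start pair had a strength of 10.6 in H4 against 11.9 in H4 88-1, and 18.2 in 42MGBA against 10.8 in 42MGBA 53-1. ADAMTS8 had 9 of 79 called and ADAMTS15, its neighbour on chromosome 11, had 2 of 77. In the H4 pair the medians of TIMP3, ADAMTS8 and ADAMTS15 were 0.27, 0.16 and 0.07.

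At the edges of the window, the leftmost member joined chr21:28135443-28140391 to the far stop, with 5.31 in H4 and 4.94 in 42MGBA 53-1. The nearest pair left outside ended at chr21:28101645-28106581 and was listed in 42MGBA only, at 5.14. On the right, the last member began at chr21:29128428-29133291, with 4.95 in 42MGBA 53-1, and the first pair outside at chr21:29407042-29411960, with 5.02 in H4 88-1.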

How the data were processed

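Hi-C libraries were made with the Arima Hi-C+ kit from H4 and 42MGBA cells and from the corrected derivative of each, with 2 replicates per line. According to the methods of the study, the authors aligned reads to hg19 with Bowtie, binned the read pairs at 5 kb anchor resolution, removed biases using HiCorr and ran DeepLoop's LoopEnhance model. Each deposited list gives, for 1 line with its replicates pooled, the 300000 strongest anchor pairs and their loop strength, a signal. An enhanced strength is smoothed over neighbouring anchors and is not a read count. The lists give no depth, and read totals of the libraries were not used here.

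The window was hg19 chr21:28150000-29150000, and the hub comprised anchors overlapping chr21:28240000-28260000. For each comparison the 100000 strongest pairs of both lists were merged, an absent pair was given the lowest strength of its list, and corrected strength was regressed on mutant strength through the origin. Residual z-scores past 1.96 in size were called. Between systems a fold of 1.5 was used. Starts within 3 kb of an anchor came from GENCODE release 44 on hg19. The named genes and pairs followed a rule: both member genes, fixed neighbours and pathway genes, the strongest pair of each set in each line, the hub pair with the largest summed z-scores, and the pairs at each local maximum. The short desert pairs and the pairs that start at the far stop fall outside it and were chosen after their values were seen. The members and lists were chosen with earlier results of these data known. Code was tested on simulated lists and run with Python 3.11.15, pandas 2.3.3 and scipy 1.17.1. The alternatives were other regressions, z-scores on log2 ratios, a stricter cutoff, other numbers of merged pairs, pairs listed in both lines only, rescaling by chromosome 21, and other windows. The 12 RNA-seq samples were not analysed here, so STAG2 and ADAMTS transcript levels are not given. RefSeq promoters of ADAMTS1 and ADAMTS5 were not used here.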

Additional observations from a re-analysis of the deposited data

Results flagged for a closer look

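ADAMTS1 start-site loops had medians of opposite sign in the 2 systems, though the value of the 42MGBA pair shows no direction. The median log2 ratio of corrected to mutant strength was -0.40 over 17 merged pairs in the H4 pair and 0.018 over 65 merged pairs in the 42MGBA pair. All 17 pairs were weaker in H4 88-1, while 31 were weaker and 34 stronger in 42MGBA 53-1. All 17 were among the strongest pairs taken for merging from H4, and 8 were among those from H4 88-1. Of the 65 pairs, 52 were among those from 42MGBA and 58 among those from 42MGBA 53-1. Entry through H4 favours the direction of the H4 pair, so the contrast between the systems is in part set by this selection. Each system has 1 list per line, and the difference between the systems was not tested. On the 16 start pairs merged in both systems, both medians were below 0, at -0.40 and -0.05, and 11 of the 16 were weaker in both corrected lines. The value of the 42MGBA pair is also below 0 when anchors up to 10 kb from a start are taken, at -0.08.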

How the results depend on the processing

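No paired analysis was possible because the replicates of each line are pooled into 1 list, and for the same reason no replicate could be left out. A count was taken as kept within 1.5 times, and a median within 1 SD of the medians of the 23 chromosomes in that comparison. Of 56 alternative values, 39 were kept. The count called lower in the H4 pair, 29, was 19 among pairs of similar size, 11 with the stricter cutoff, 3 after joining neighbours, 44 with 200000 pairs merged and 17 with 50000. The count in the 42MGBA pair, 17, was 8 with an intercept, 9 with log2 ratios, 0 among pairs of similar size, 4 with the stricter cutoff, 2 after joining, 38 with 200000 pairs merged and 7 with 50000. Fewer pairs are merged with 50000 and joining counts groups, and for the others the cause was not tested. With 200000 pairs the H4 median of the locus moved from -0.45 to -0.29, that of the hub from -0.50 to -0.33, and the 42MGBA hub median from -0.50 to -0.29. With 50000 the H4 hub median was -0.68. The 42MGBA median of ADAMTS1 start loops turned from 0.02 to -0.081 with anchors within 10 kb. Of 36 alternative medians, 35 kept their direction. ADAMTS5 start loops had no merged pair in the H4 system, so these alternatives gave no value. Without read counts, no strength could be given a counting error.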
